A study of Homo sapiens with 23 samples.

Results

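Butyrylation and acetylation of the same histone residue, lysine 18 of histone H3 (H3K18bu and H3K18ac), were compared by ChIP-seq in butyrate-treated colorectal cancer cells. The members are 4 of the 23 libraries of the series: replicates 1 and 2 of H3K18bu and replicates 1 and 2 of H3K18ac, chosen by their labels. All 4 came from SW480, an established line of human colorectal adenocarcinoma epithelium, exposed to 1 mM sodium butyrate (NaBu) so both groups share the treatment and differ in the antibody. The input library of NaBu-treated SW480 chromatin served as the background. SW480 is 1 cell line, and nothing in the labels says whether the replicates were separate cultures, so p-values measure only the spread between these libraries. The deposited lists of the H3K18ac libraries carry a control tag in their names, while their labels give NaBu, and the labels were used here.

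Lysine 18 lies in the tail of histone H3, where acetylation by CBP and p300 is a familiar mark of active promoters and enhancers. Butyrylation places a longer acyl chain on the same amino group, and the donor butyryl-CoA is made from butyrate and during fatty acid oxidation. Butyrate is produced by bacteria in the colon, is burned by colonocytes as fuel, and inhibits class I and II histone deacetylases. A lysine carries only 1 acyl group at a time, but a region of chromatin contains many nucleosomes and can yield peaks for both marks.

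Each library was deposited as a list of enriched regions with a fold value, the ratio of fragments at the summit to the local background. The H3K18bu lists held 22059 and 22497 regions, and the H3K18ac lists held 116459 and 60344. Median folds were 3.5 and 3.49 for H3K18bu and 3.68 and 3.89 for H3K18ac, and the highest folds were 20.1 and 37.8 against 71.7 and 65.6. The H3K18bu lists were thus shorter with lower tops, although their pileup values pointed to 18.5 and 16.2 fragments per kb against 5.67 and 9.59 for H3K18ac. The part of depth in the length of the lists was not tested. To keep list length from deciding the comparison, each was also made with equal numbers, the 22059 regions of each library with the smallest p-values. Fold values come from different antibodies, so their absolute levels are not comparable between the marks, and differences are given after each library was centred on its own median.

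Part of the epithelial markers were marked in these lists. EPCAM, KRT8, KRT18, KRT19, VIL1 and HNF4A, 6 of 15 colon epithelium markers, held a region within 1 kb of the transcription start in all 4 libraries, while CDX2, KRT20, CDH17 and GPA33 held none in any. CDH1, CEACAM5 and MUC2 held start regions in both H3K18ac libraries only, and CDX1 and LGR5 in H3K18ac replicate 1 only. At the EPCAM start, which belongs to an epithelial adhesion molecule, the folds were 7.53 and 6.18 for H3K18bu and 13.2 and 11.8 for H3K18ac. Of 12 markers of other lineages, 0 held a region within 1 kb of the start in all 4 libraries, while CD3E and PECAM1 held body regions in all 4. The PECAM1 start held a region in both H3K18ac libraries (folds 2.8 and 3.42), and those of COL1A1, GFAP and INS in H3K18ac replicate 1.

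The regions that set the marks apart differed in base composition, which is visible in the reference sequence itself. The following 150 bp windows (hg38, plus strand, CG dinucleotides in capitals) are centred on the summits of the 3 strongest regions held by both H3K18bu libraries and no H3K18ac library, the 3 strongest promoter regions held by both H3K18ac libraries and no H3K18bu library, and the shared promoter region with the largest H3K18bu excess. Windows over an annotated exon were passed over.
MCC, H3K18bu only, chr5:113489708-113489857: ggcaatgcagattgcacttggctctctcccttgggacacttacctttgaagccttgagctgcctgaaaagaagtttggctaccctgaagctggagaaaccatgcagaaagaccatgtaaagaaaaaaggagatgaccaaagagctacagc
ALPK2 intron, H3K18bu only, chr18:58527110-58527259: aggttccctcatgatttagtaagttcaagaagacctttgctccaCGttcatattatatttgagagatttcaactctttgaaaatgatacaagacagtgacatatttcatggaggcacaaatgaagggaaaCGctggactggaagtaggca
Outside protein-coding and lncRNA genes, H3K18bu only, chr1:30791278-30791427: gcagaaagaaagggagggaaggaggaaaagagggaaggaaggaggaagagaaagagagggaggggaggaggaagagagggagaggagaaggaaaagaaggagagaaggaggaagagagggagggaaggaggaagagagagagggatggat
SLC10A3, H3K18ac only, chrX:154490987-154491136: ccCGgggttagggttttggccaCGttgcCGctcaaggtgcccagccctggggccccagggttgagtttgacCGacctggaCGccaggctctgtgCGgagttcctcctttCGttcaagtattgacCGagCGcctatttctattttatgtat
LINC03006, H3K18ac only, chr7:65770959-65771108: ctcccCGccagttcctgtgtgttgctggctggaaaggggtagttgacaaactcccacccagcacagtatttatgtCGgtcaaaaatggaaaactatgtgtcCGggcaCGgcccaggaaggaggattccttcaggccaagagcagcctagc
DNASE2, H3K18ac only, chr19:12881611-12881760: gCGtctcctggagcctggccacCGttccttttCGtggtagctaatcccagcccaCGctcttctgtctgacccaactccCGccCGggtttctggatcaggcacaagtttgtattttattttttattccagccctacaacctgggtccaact
POU2F3, shared and higher in H3K18bu, chr11:120236476-120236625: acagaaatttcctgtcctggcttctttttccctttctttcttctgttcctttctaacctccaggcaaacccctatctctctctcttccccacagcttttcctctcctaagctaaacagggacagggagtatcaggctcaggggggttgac

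The H3K18bu-only windows held 0, 2 and 0 CG dinucleotides and the POU2F3 window 0, against 9, 4 and 6 in the H3K18ac-only promoter windows. The window on chromosome 1 was 98.0% purine. Over all 270 H3K18bu-only regions, a 200 bp window at the summit held a mean of 1.59 CG dinucleotides, against 6.65 in 18318 H3K18ac-only regions and 4.45 in the 8787 regions held by all 4 libraries. The one-sided sets differ in position, with 5.19% of H3K18bu-only and 33.2% of H3K18ac-only regions at promoters. At equal numbers the means were 4.29 against 12.4 at promoters and 1.78 against 5.78 over 10 kb from a start.

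Regions held by 1 mark alone lay in different places. With all regions, H3K18bu made up 0.229% of the one-sided regions (both libraries of 1 mark and no library of the other) within 1 kb of a transcription start, 14 against 6087, and 5.65% of those over 100 kb from any start, 37 against 618. With equal numbers its share was 5.44% at starts (120 against 2086, 95% Wilson interval 4.57% to 6.47%). It was 32.9% at 1 to 10 kb (346 against 706) and 76.5% beyond 100 kb (182 against 56, 70.7% to 81.4%). At 10 to 100 kb each mark held 936 of the one-sided regions (interval of the share 47.7% to 52.3%). At equal numbers the H3K18bu lists thus held more of the one-sided regions beyond 100 kb than the H3K18ac lists, and at starts far fewer, while with all regions they held fewer at every distance. These intervals cover counting error only. Equal numbers kept nearly all H3K18bu regions but only the top of the H3K18ac lists, and H3K18bu-only regions rose from 270 to 1584. Such a region can therefore hold an H3K18ac region in the complete lists. With a fixed number of regions, a larger share at starts leaves fewer elsewhere, so the distances are not independent.

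GC content moved with this pattern at every distance. Among one-sided regions with under 45% GC at the summit, the H3K18bu share at equal numbers was 45.9% at starts and 92.5% at 10 to 100 kb. Among regions with 55% GC or more it was 0.84% at starts, 3.61% at 10 to 100 kb and 14.3% beyond 100 kb. Distance and composition each went with the share when the other was held in these bands. Chromosomes 19 and 22 had the lowest H3K18bu shares, 7.78% and 10.5%, and chromosome 8 the highest, 45.9%. The part of GC content in the difference between the marks was not tested beyond these bands.

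Per library, the promoter share of the summits depended on how many regions were taken. With all regions it was 21.9% and 13.9% for H3K18bu and 16.6% and 21.9% for H3K18ac, and the groups overlapped. With equal numbers it was 21.9% and 14.0% against 39.2% and 33.2%, and the groups did not overlap (difference of means -18.2 percentage points, exact permutation p = 0.333, two-sided, the smallest that 2 against 2 libraries allow). The height of promoter against distal regions was compared within libraries. The median log2 fold at starts minus that beyond 10 kb was 0.0624 and 0.125 in the H3K18bu libraries and 0.444 and 0.357 in the H3K18ac libraries (difference of means -0.307, exact permutation p = 0.333). The difference was smaller at equal numbers, -0.128, and with the 5000 highest regions, -0.0443.

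The side of the start differed too. Of the promoter summits, 54.5% and 47.6% lay downstream of the start in H3K18bu and 60.8% and 57.3% in H3K18ac. The means were 51.1% ± 4.86 (SD, n = 2) and 59.0% ± 2.49 (SD, n = 2), a difference of -7.94 percentage points (exact permutation p = 0.333). The first 250 bp downstream, where the first nucleosome after the start lies in many active genes, held 26.0% and 22.8% of the H3K18ac promoter summits and 20.5% and 14.9% of the H3K18bu ones. The H3K18ac libraries sat higher in that window, and the gap to the nearest H3K18bu library was smaller than the spread within H3K18bu.

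**Figure D1:**
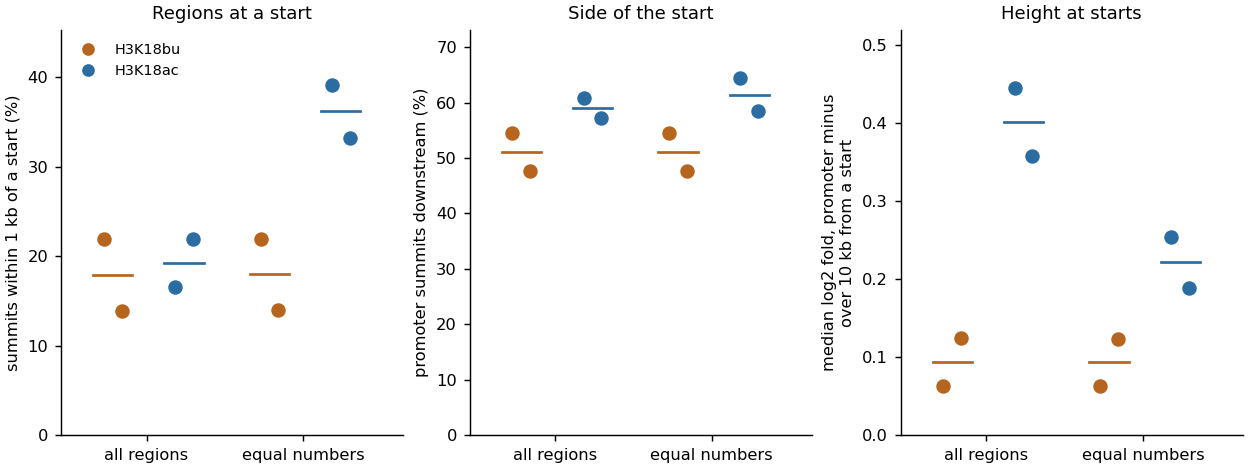
Each point is 1 library (brown, H3K18bu; blue, H3K18ac) and each line a group mean, with all regions and with equal numbers: percentage of summits within 1 kb of a start, percentage of those summits downstream of the start, and median log2 fold at starts minus that over 10 kb away. The promoter shares overlap with all regions and separate at equal numbers, where H3K18ac stands at 39.2% and 33.2%.

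At the level of genes, H3K18bu without H3K18ac was rare at transcription starts. Of 38899 protein-coding and lncRNA genes, 6 held a region within 1 kb of the start in both H3K18bu libraries and no H3K18ac library (0.0154% of the genes), 6018 the reverse (15.5%) and 2861 a region in all 4 (7.35%). H3K18bu thus took 0.0996% of the one-sided genes (95% Wilson interval 0.0457% to 0.217%). Genes that share a start region are counted separately, so bidirectional pairs count as 2. A start window can hold an H3K18bu-only region beside a separate H3K18ac region, and its gene is then not H3K18bu-only. MCC, with an H3K18bu-only region 803 bp from its start, was not an H3K18bu-only gene.

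The 6 H3K18bu-only genes were CPD, MAPRE3, ATAD3C, TTC26, PCSK1N and 1 gene with only an identifier for a name. CPD, which encodes the trans-Golgi enzyme carboxypeptidase D, had folds of 3.88 and 4.04 in the H3K18bu libraries. MAPRE3, which encodes the microtubule plus-end protein EB3, had folds of 3.22 and 3.61. PCSK1N, which encodes an inhibitor of prohormone convertase 1, had folds of 2.56 and 3.75. TTC26, an intraflagellar transport gene, had 2.82 and 3.53, and ATAD3C, of a mitochondrial ATPase family, 3.22 and 3.17. These folds lay around the medians of the H3K18bu lists, 3.5 and 3.49. With any annotated transcript start MAPRE3 and ATAD3C were no longer H3K18bu-only, with a 500 bp window PCSK1N was not, and with a 2 kb window CPD and ATAD3C were not.

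The 15 highest H3K18ac-only starts had folds well above the list medians of 3.68 and 3.89. FMC1, which encodes an assembly factor of mitochondrial ATP synthase, led with folds of 19.6 and 21.7, but was not H3K18ac-only with a 2 kb window or with any annotated transcript start. ARID4A, which encodes a subunit of a SIN3 histone deacetylase complex, followed with 22.0 and 18.8 in a window shared with ARMH4 and PSMA3-AS1. HYAL2 (a hyaluronidase) had 28.0 and 17.0, RFX1 (a winged-helix transcription factor) 16.5 and 17.1, and VDAC2 (an outer mitochondrial membrane channel) 20.1 and 16.3. All 15 had folds of at least 15.5 in both H3K18ac libraries. They also included ASB16-AS1 with TMUB2, APBA3, TRIM8-DT, SLC10A3, ZFAND5, and the pair RNF167 and SLC25A11. The same 15 led at equal numbers.

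With equal numbers the H3K18bu-only starts numbered 78 (0.201% of genes) and the H3K18ac-only starts 2381 (6.12%), a share of 3.17% (2.55% to 3.94%). Of the 78, 58 held a region in all 4 complete lists and 6 remained without H3K18ac, so most had H3K18ac regions that ranked below the limit. PPP1R1C, which encodes an inhibitor of protein phosphatase 1, had folds of 4.76 and 4.95 in H3K18bu and 4.33 and 2.37 in the complete H3K18ac lists. LUCAT1, a stress-induced lncRNA, had 3.9 and 5.44 against 3.83 and 4.0. LMO2, which encodes a LIM-domain transcriptional adaptor, had 3.62 and 4.73 against 4.96 and 4.12. FAM186A, LY6G6C, SERPINA12, ACTRT3, LINC01392, the pair MRPL10 and LRRC46, and the pair UBE2L5 and LINC01058 were of this kind as well. CLK4 and XPC-AS1 lacked a region in 1 of the H3K18ac libraries. Of the 2381 H3K18ac-only starts, 2380 stayed H3K18ac-only in the complete lists.

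Over gene bodies (more than 1 kb downstream of the start, 35720 genes) the marks were closer. With all regions 22 genes were H3K18bu-only (0.0616%) and 4667 H3K18ac-only (13.1%), a share of 0.469% (0.31% to 0.709%). All 4 libraries held 4348 bodies (12.2%). With equal numbers there were 402 (1.13%) and 1159 (3.24%), with 3512 (9.83%) in all 4, a share of 25.8% (23.6% to 28.0%). When only regions over 1 kb from every annotated transcript start were counted, also at equal numbers, the direction turned: 515 genes (1.44%) were H3K18bu-only and 269 (0.753%) H3K18ac-only, with 2080 (5.82%) in all 4, a share of 65.7% (62.3% to 68.9%). In the complete lists the same filter gave 44 H3K18bu-only genes (0.123%) and 2873 H3K18ac-only (8.04%), with 2958 (8.28%) in all 4, a share of 1.51%. Both counts away from transcript starts were chosen after the values were seen. Of the 402 H3K18bu-only bodies at equal numbers, 307 held a region in all 4 complete lists and 21 remained without H3K18ac. Genes with H3K18bu-only bodies at equal numbers were longer, with a median of 103.0 kb against 23.2 kb for H3K18ac-only.

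ITGAV, which encodes the integrin alpha-V chain of vitronectin receptors, carried H3K18bu-only regions in its body with folds of 4.15 and 3.61. SERPINB2, which encodes plasminogen activator inhibitor 2, had 3.35 and 3.61. FNTB, which encodes the farnesyltransferase beta subunit, had 5.61 and 4.04. PPID (the prolyl isomerase cyclophilin 40) had 4.02 and 4.92, CALCR (the calcitonin receptor) 5.82 and 2.99, and SELENOP (the selenium carrier selenoprotein P) 2.96 and 3.6. LINC01102, PIGW, TANK-AS1 and SPATA6 completed the 10, with folds between 2.88 and 4.48. Away from every annotated transcript start, FNTB, ITGAV, LINC01102, CALCR and TANK-AS1 stayed H3K18bu-only, in the complete lists and at equal numbers. PPID, SERPINB2, PIGW, SELENOP and SPATA6 did not.

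At equal numbers the 10 highest H3K18bu-only bodies were COA1 and STK17A, which share a region, CLMP, DOCK8, MME, SYNE1, EXOC4, EXOC2, HSD17B2 and HSD17B2-AS1. EXOC4 and EXOC2, which encode subunits of the exocyst that tethers secretory vesicles to the plasma membrane, had 4.25 and 7.45, and 4.99 and 4.23. MME, the neprilysin peptidase gene, had 4.3 and 4.53 in H3K18bu and 2.8 in 1 H3K18ac library only, and EXOC2 likewise had 4.47 in 1. In the complete lists, 8 of these 10 were held by all 4 libraries. H3K18ac-only bodies were led by LINC02585 (45.2 and 32.1), DPM1 (30.9 and 31.0), the RNA helicase gene DDX3X (29.3 and 27.8) and the AP-1 gene FOSB (34.0 and 26.3). GPR132, ZNF562, PTPN6, ZNF566, CA5BP1 and PAIP2 completed the 10, all with folds of at least 20.6. Away from every annotated transcript start, at equal numbers, no gene of these 10 stayed H3K18ac-only. In the complete lists FOSB, GPR132 and CA5BP1 did. The FOSB start itself was shared, with H3K18bu folds of 10.0 and 3.68. Of the H3K18bu-only bodies at equal numbers, COA1 and STK17A did not stay one-sided away from starts either.

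The 8787 merged regions held by all 4 libraries allowed the heights to be compared. By limma on centred log2 folds, 398 (4.53%) were higher in H3K18bu and 484 (5.51%) higher in H3K18ac at a Benjamini-Hochberg adjusted p under 0.05. Of the 2344 that lay at a start, 30 (1.28%) were higher in H3K18bu and 319 (13.6%) in H3K18ac. Of the 579 over 100 kb from a start, 61 (10.5%) were higher in H3K18bu and 4 (0.691%) in H3K18ac. The median log2 difference, H3K18bu minus H3K18ac, was -0.39 at starts, 0.12 at 1 to 10 kb, 0.22 at 10 to 100 kb and 0.39 beyond 100 kb. Within libraries, the median log2 fold at starts minus that beyond 100 kb was 0.15 and -0.07 in H3K18bu and 0.99 and 0.75 in H3K18ac, so the H3K18bu libraries had little height difference between starts and far regions (difference of means -0.83, exact permutation p = 0.333).

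The calls leaned on the scale and on single libraries. H3K18ac spans a wider range of folds, and quantile normalisation, which gives all libraries the same range, left 5 regions higher in H3K18bu and 10 higher in H3K18ac, with medians of -0.31 at starts and 0.27 beyond 100 kb. Without H3K18bu replicate 2 there were 5 and 99, and the folds of H3K18bu replicate 1 correlated with H3K18ac replicate 2 (Pearson r = 0.68 over the 8787 shared regions) about as with H3K18bu replicate 2 (r = 0.663). At equal numbers, 54.2% of the regions of H3K18bu replicate 1 overlapped H3K18bu replicate 2. More overlapped H3K18ac replicates 1 and 2, 65.0% and 70.1%. For H3K18bu replicate 2 the shares were 53.0% with its own replicate and 46.4% and 51.6% with H3K18ac. With no centring, where the median of all shared regions was -0.79, 8 and 4358 were called.

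The order by distance was also present among regions of like height, in 4 groups of equal size by mean fold. In the lowest group, the median log2 difference was 0.3 at starts and 0.61 beyond 100 kb, and in the highest group -0.65 and 0.04. At every height the difference was lowest at starts. In GC bands, shared promoter regions ran from 0.24 under 45% GC to -0.65 at 55% GC or more, and those beyond 100 kb from 0.57 to -0.13.

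**Figure D2:**
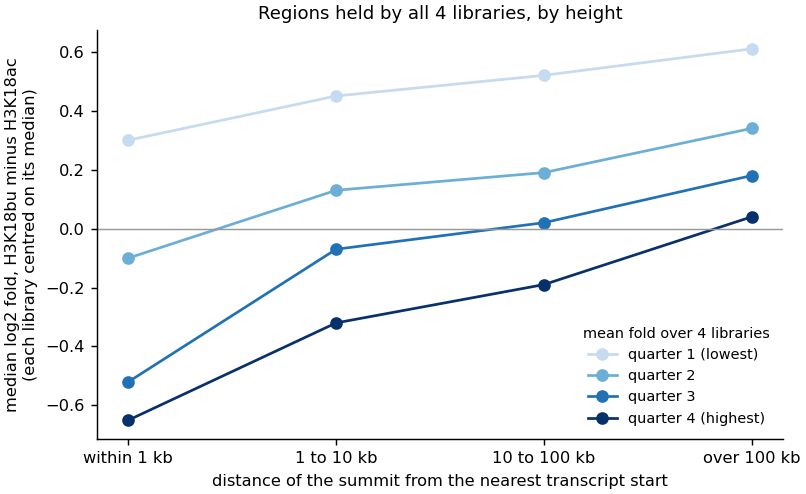
Median log2 fold difference (H3K18bu minus H3K18ac, each library centred on its median) of the 8787 regions held by all 4 libraries, by distance from the nearest start, with 1 line for each of 4 groups by mean fold. Every line is lowest within 1 kb, at -0.65 in the group of highest fold, and highest beyond 100 kb.

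The promoter with the largest H3K18bu excess belonged to POU2F3, the transcription factor that specifies chemosensory tuft cells of the gut and other epithelia. Its region at chr11:120236006-120236768 had folds of 17.1 and 20.9 in H3K18bu and 8.8 and 9.41 in H3K18ac. Both H3K18bu libraries stood above both H3K18ac libraries before any centring. The centred log2 difference was 1.92 ± 0.30 (SE, limma adjusted p = 0.00785). Of the 10 promoters named, POU2F3 was the 1 higher in H3K18bu that also passed with no centring (log2 1.05, adjusted p = 0.0128) and with quantile normalisation (log2 2.12, adjusted p = 0.0337). No region of the NaBu input overlapped it.

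Among promoters of genes with a name, the next was PPP1R1C (log2 1.47 ± 0.30 SE, limma adjusted p = 0.0171). ZNF616, a zinc finger gene, had folds of 3.68 and 4.66 against 2.59 and 3.58. MATR3, which encodes the nuclear matrix protein matrin 3, had 4.13 and 6.58 against 6.28 and 2.39. LRIF1, which encodes a heterochromatin-associated interactor of HP1, had 4.88 and 4.71 against 4.51 and 3.17. LINC01392, LINC00513, EVA1A-AS, LUCAT1 and ADGRA3 (an adhesion G protein-coupled receptor) had log2 differences between 1.17 and 1.29, with adjusted p from 0.0258 to 0.0308. Before centring the libraries of the marks overlapped at MATR3, LINC01392, LINC00513, LUCAT1 and ADGRA3. The 9 named promoters beyond POU2F3 had adjusted p above 0.05 under both other scalings, between 0.0839 and 0.438. Another 5 promoters within this range of differences belonged only to genes with an identifier for a name, and the naming rule passed over them. The highest, at ENSG00000273338 within DNAJB4 and GIPC2 (chr1:78004149-78005220), had folds of 10.9 and 12.9 against 7.87 and 7.76 (log2 1.47 ± 0.29 SE, limma adjusted p = 0.0165) and also passed with quantile normalisation (log2 1.69, adjusted p = 0.048).

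The 10 largest H3K18ac excesses were at tall promoters. The divergent promoter of IBA57, a mitochondrial iron-sulfur cluster assembly gene, and IBA57-DT had folds of 4.66 and 2.97 in H3K18bu and 49.1 and 33.9 in H3K18ac (log2 -2.59 ± 0.32 SE, limma adjusted p = 0.00464). YWHAG, which encodes the 14-3-3 gamma adaptor, had 3.52 and 2.1 against 32.3 and 20.9. The divergent ZCWPW1 and MEPCE promoter, the latter for the methyltransferase that caps 7SK RNA, had 10.1 and 5.78 against 67.9 and 54.1. NPC1, the lysosomal cholesterol transporter gene, had 6.29 and 4.27 against 50.8 and 31.0. CIC, which encodes a repressor of ETS-family genes, had 4.74 and 4.16 against 40.5 and 24.6. TAX1BP1 (an autophagy receptor), SND1 (a staphylococcal nuclease-domain protein), LENG9, ZNF460 and SMG9 (nonsense-mediated decay) had log2 differences between -2.06 and -1.93. In these 10 regions, 0 H3K18bu libraries reached the lower H3K18ac library, and IBA57, YWHAG, SND1 and LENG9 also passed with quantile normalisation.

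**Figure D3:**
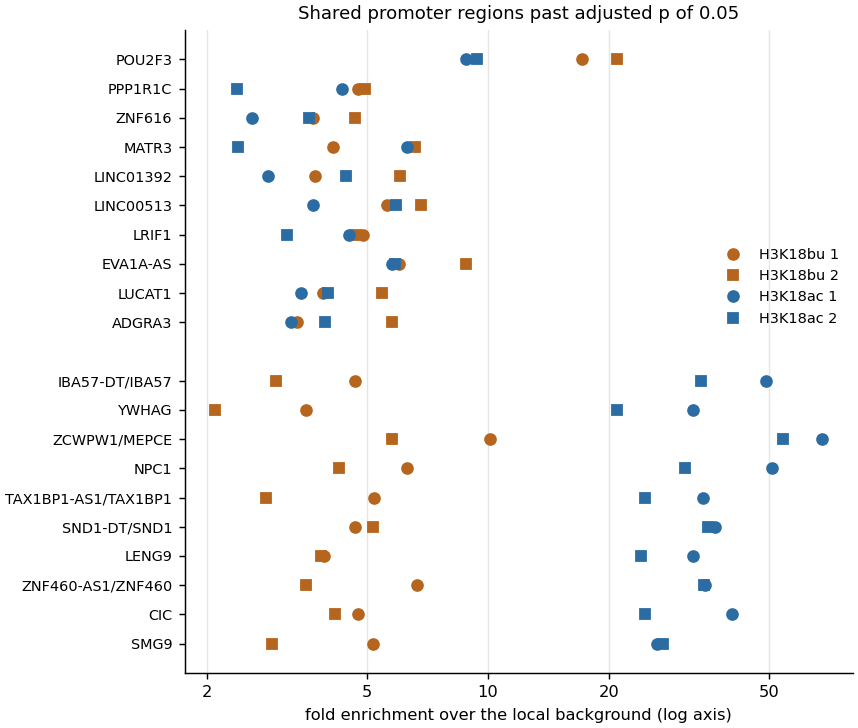
Fold enrichment in each library (log axis; brown, H3K18bu; blue, H3K18ac; circles, replicate 1; squares, replicate 2) at the 10 shared promoter regions of named genes with the largest H3K18bu excess and the 10 with the largest H3K18ac excess after centring; promoters only of genes known by an identifier are left out. POU2F3 heads the upper block with H3K18bu at 17.1 and 20.9 against 8.8 and 9.41, while the lower block shows H3K18ac folds of 20.9 to 67.9.

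With no centring, 8 shared regions were higher in H3K18bu, POU2F3 and 7 away from starts. A region 22999 bp from the start of EXPH5, a RAB27 effector of vesicle transport, had folds of 4.35 and 7.28 against 2.34 and 3.34. A region 13888 bp from the start of LGALS8 (galectin 8) had 8.22 and 9.76 against 4.2 and 5.65. Others lay near LYZL1, PSG1 and LINC02929 and inside LINC03082. A region inside STIM1 had 6.59 and 13.8 against 4.12 and 3.41 but overlapped an input region.

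By p-value, the strongest H3K18bu region in both libraries lay in PCAT1, a lncRNA gene upstream of MYC at 8q24, 40104 bp from the start of PRNCR1. Its folds were 7.26 and 12.2 in H3K18bu and 10.4 and 10.7 in H3K18ac, and it ranked 14 and 5 in the H3K18ac lists, so it was strong for both marks. A region in LINC02964, also on chromosome 8, ranked 2 and 3 in H3K18bu and 45 and 16 in H3K18ac. Regions 29144 bp from the GNA12 start and 13778 bp from the TXLNG start ranked 5 and 2, and 15 and 16, in H3K18bu, against 252 and 109, and 544 and 1261, in H3K18ac. Their H3K18bu folds, 13.5 and 30.8, and 18.6 and 26.9, were above those of the PCAT1 region. The H3K18ac lists are longer, so ranks are not on 1 scale between the marks. At the MYC start itself the folds were 4.24 and 4.1 against 7.92 and 7.66, a centred log2 difference of -0.02 (limma adjusted p = 0.964), while PVT1 was higher in H3K18ac (log2 -1.82, adjusted p = 0.0133). POU5F1B, within the same locus, carried H3K18bu-only regions in its body with folds of 2.25 and 2.89, under the H3K18bu list medians of 3.5 and 3.49.

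Gene groups were compared at the start by counts, against backgrounds at equal numbers of 6.12% H3K18ac-only, 0.201% H3K18bu-only and 6.76% in all 4 libraries. These backgrounds run over all 38899 genes, 18866 of them lncRNA genes, while the lists are mostly protein-coding. With all regions, protein-coding genes alone stood higher than all genes, at 21.4% against 15.5% H3K18ac-only and 9.65% against 7.35% in all 4. Of the 2381 H3K18ac-only genes at equal numbers, 1743 were protein-coding. The part of gene type in the list shares was not tested. Among all shared promoter regions, each counted once, the median log2 difference was -0.39, with 1.28% called higher in H3K18bu and 13.6% in H3K18ac. List values count genes instead. A gene with several shared regions at its start took the region with the largest absolute difference, so list medians and calls are not on the same footing. No test was made of any group.

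Of 30 immediate-early genes, which respond rapidly to growth signals, 14 (46.7%) held a region at the start in all 4 libraries and 1 (MAFG) was H3K18ac-only at equal numbers. The other members had a region in some libraries or in none. Among 16 with a shared promoter region the median log2 difference was -0.74, and 6 were higher in H3K18ac: IER2, FOSB, EGR1, EGR3, KLF6 and SRF. IER2 had folds of 6.35 and 4.19 against 29.5 and 33.5 (log2 -1.74, limma adjusted p = 0.0133), and EGR1 had 8.36 and 4.06 against 29.1 and 27.6 (log2 -1.42, adjusted p = 0.0245). FOS had 4.66 and 5.46 against 17.9 and 9.54 and did not pass (adjusted p = 0.296). The AP-1 motif TGANTCA, searched on both strands, was present at the summit of 6.67% of H3K18bu-only, 4.75% of H3K18ac-only and 5.74% of all 138499 merged regions. GGGCGG, the GC box bound by SP and KLF proteins, was present in 1.48%, 16.7% and 9.74%, and CCGGAAG, a core of ETS sites, in 0.37%, 2.37% and 1.43%. TTTATNG, bound by CDX factors, went the other way, in 9.63%, 5.12% and 7.29%. Beyond 10 kb from a start, at equal numbers, it was in 10.0% of H3K18bu-only and 3.33% of H3K18ac-only regions. GGAATG, bound by TEAD factors, was in 20.7%, 11.2% and 11.2%. Beyond 10 kb at equal numbers GGAATG was in 14.4% of H3K18bu-only and 10.8% of H3K18ac-only regions. Among shared regions it was in 12.3% of those called higher in H3K18bu and 11.4% of those called higher in H3K18ac, so the shares were close there. These shares describe letters in a window of 200 bp and were not adjusted for its GC content.

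Genes of the unfolded protein response restore folding capacity in the endoplasmic reticulum. Of 30, 7 were shared at the start, 6 were H3K18ac-only and 0 H3K18bu-only at equal numbers. Of 7 shared promoter regions, 4 were higher in H3K18ac and the median log2 difference was -1.14. HSPA5, the chaperone BiP, had folds of 4.15 and 4.72 against 21.8 and 14.5 (log2 -1.14, limma adjusted p = 0.0294). SYVN1 (an ER ubiquitin ligase) had 9.98 and 2.75 against 37.3 and 28.5. HERPUD1 had 4.94 and 3.9 against 22.7 and 15.8, and XBP1 2.49 and 2.64 against 11.1 and 11.3. SYVN1, HERPUD1 and XBP1 had log2 differences of -1.77, -1.24 and -1.26.

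Lists of lysine acyltransferases, deacylases and acyl-lysine readers held 0 H3K18bu-only starts at equal numbers. The share over all genes was 0.201%, so 0 in lists of this size says nothing about them. Of 18 deacylases, 5 (HDAC1, HDAC5, HDAC11, SIRT3 and SIRT6) were H3K18ac-only at the start at equal numbers, and HDAC6 and SIRT2 were shared. Of 16 lysine acyltransferases, KAT6A, KAT7, GTF3C4 and CLOCK were H3K18ac-only and HAT1, NAA10, NCOA3 and TAF1 shared. KAT7 had H3K18ac folds of 30.3 and 7.85. EP300, an acetyltransferase that can also transfer butyryl groups, had a region in 1 H3K18ac library only, with a fold of 7.7. Of 30 acyl-lysine readers, 7 were H3K18ac-only. No shared promoter in these groups passed the test.

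Genes that handle butyrate were next. Of 38 genes of short-chain acyl-CoA metabolism, 5 (ACAA1, ACAA2, PCCB, CRAT and ETFA) were H3K18ac-only and 2 (MCEE and ETFB) shared at equal numbers. ETFB, an electron acceptor of acyl-CoA dehydrogenases, had folds of 3.19 and 3.82 against 17.6 and 16.6 (log2 -1.42, limma adjusted p = 0.0171). ACADS, the short-chain acyl-CoA dehydrogenase that oxidises butyryl-CoA, had a region in 1 H3K18ac library only. Of 17 transporters and receptors of short-chain fatty acids, 0 were shared or one-sided at equal numbers. SLC16A1, which encodes the butyrate transporter MCT1, had folds of 4.6 and 3.45 in the complete H3K18ac lists and no H3K18bu region.

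Among housekeeping groups, of 87 cytosolic ribosomal protein genes, 26 were shared and 16 H3K18ac-only, such as RPS9 (16.1 and 14.2) and RPL15 (10.0 and 9.21). Of 24 shared promoters, RPL28, RPS16 and RPL24 were higher in H3K18ac. Of 99 genes of oxidative phosphorylation, 13 were shared and 15 H3K18ac-only, and of 50 proteasome genes 8 and 7. Of 50 cell cycle genes the numbers were 7 and 8. Keratins, at 55 genes, had 8 shared and 0 one-sided. KRT80 was higher in H3K18ac, with folds of 4.28 and 2.8 against 21.3 and 11.9 (log2 -1.34, limma adjusted p = 0.0258).

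Of 69 replication-dependent histone genes, 7 were shared, 16 H3K18ac-only and 1 (H1-3) H3K18bu-only at equal numbers. In the complete lists H1-3 had folds of 2.57 and 3.18 against 3.96 and 3.51. Over 13 members with a shared promoter region the median log2 difference was 0.23, against -0.39 over all shared promoters. HOX genes, with 4 such members, had a median of 0.33 and no call. H2BC8 and H2AC8, which share 1 region on chromosome 6, were higher in H3K18bu (log2 0.94, limma adjusted p = 0.0386). At the H2BC8 start the folds were 3.68 and 3.95 against 6.76 and 4.73, so the excess was relative to the centred scale. H4C8 had 7.04 and 6.26 against 25.0 and 19.0 (adjusted p = 0.0732). Members lie close together and share regions, so they are not independent.

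Growth and lineage lists held at most 1 H3K18bu-only start each at equal numbers, where the share over all genes was 0.201%. Such counts are too small to set a list apart. Of 53 Wnt pathway genes, 4 were shared, 4 H3K18ac-only and 1 H3K18bu-only at equal numbers. That gene was FZD1, a Wnt receptor, with folds of 2.39 and 2.49 against 3.64 and 3.37 in the complete lists. GSK3B was higher in H3K18ac (5.47 and 5.34 against 42.6 and 16.5). Of 42 genes of TGF-beta, BMP, SMAD and ID, 6 were shared and 5 H3K18ac-only, and the receptor gene BMPR2 was higher in H3K18ac (log2 -1.08, limma adjusted p = 0.0323). Of 30 intestinal transcription factors, HNF4A and HES1 were shared, SOX9 was H3K18ac-only and MAF H3K18bu-only at equal numbers. MAF held a region in all 4 complete lists, with folds of 2.82 and 3.14 against 5.0 and 4.19. In the BCL2 family, the p53-responsive death genes PMAIP1 and BBC3 were higher in H3K18ac, with BBC3 at 6.21 and 4.79 against 25.9 and 28.2 (log2 -1.44, adjusted p = 0.0181).

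Of 50 migration and adhesion genes, 7 were shared and 6 H3K18ac-only. Of 41 enterocyte and goblet genes the numbers were 2 and 1, of 18 Krüppel-like factors 1 and 3, and of 39 HOX genes 2 and 5. Of 132 ion channel genes 1 was shared and 3 H3K18ac-only, and of 400 olfactory receptor genes 0 and 0. Among these there was no H3K18bu-only start, where the share over all genes was 0.201%. Of 509 ZNF genes, 38 were shared, 65 H3K18ac-only and 1 H3K18bu-only.

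**Figure D4:**
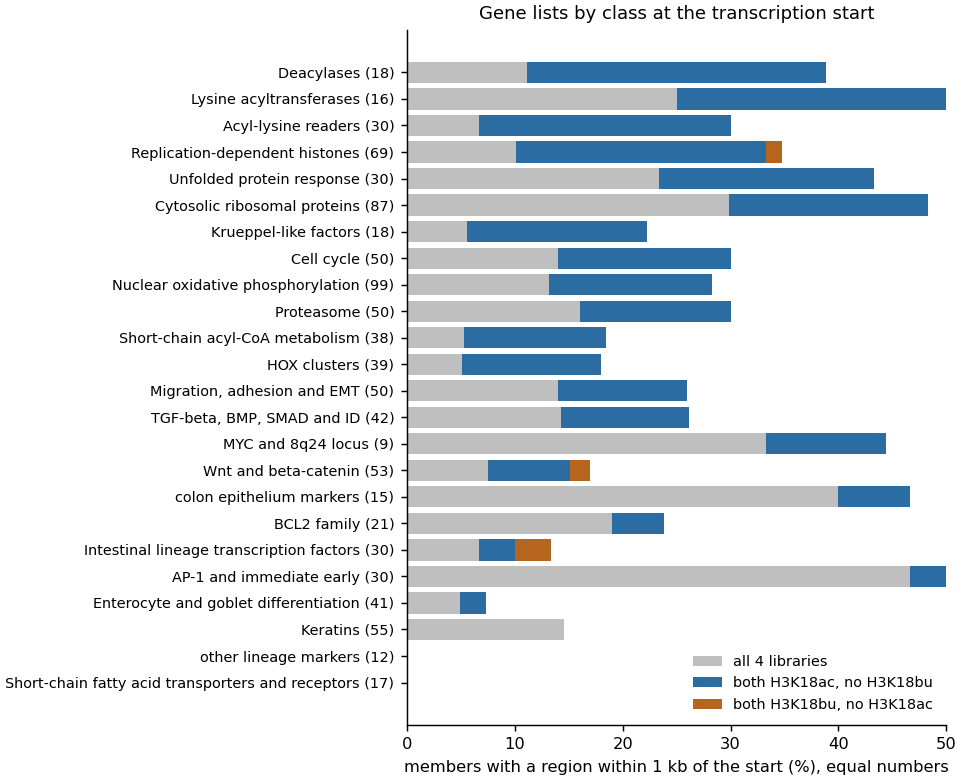
Percentage of the members of each gene list (number of members in brackets) with a region within 1 kb of the start in all 4 libraries (grey), in both H3K18ac libraries only (blue) or in both H3K18bu libraries only (brown), at equal numbers. Shared starts make up 46.7% of the immediate-early list and 40.0% of the colon epithelium markers, and among the lists drawn, which leave out ZNF genes, channels and olfactory receptors, brown appears for 1 member each of the histone, Wnt and intestinal transcription factor lists.

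Other lists of the series were laid over the same regions. Of the 270 H3K18bu-only regions, 77 (28.5%) overlapped a region in both H3K18ac libraries of untreated SW480 cells, against 61.8% of the H3K18ac-only regions and 78.4% of the shared ones. Those untreated libraries were made in another run. Regions of both H4K12bu libraries in NaBu covered 0.37% of H3K18bu-only, 0.278% of H3K18ac-only and 34.7% of shared regions. Among shared regions, those higher in H3K18bu were held by both H4K12bu libraries in 17.1% and by both H4K12ac libraries in 28.6%, and those higher in H3K18ac in 57.9% and 91.1%. The regions that favoured H3K18bu were narrower, with a median of 785.5 bp against 1965.0 bp, and 57.0% against 99.0% lay in both untreated H3K18ac lists. Of them 8.54% overlapped an input region, against 6.2% of those higher in H3K18ac.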

How the data were processed

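ChIP-seq region lists of 4 immunoprecipitated SW480 libraries and the NaBu input were used. The authors aligned reads to hg38 with Bowtie2 2.3.1 and called peaks per library with MACS2 2.1.0 at a p-value of 0.01 against input, with blacklisted regions removed (bcl2fastq 2.17.1 and cutadapt 1.8.1 per the labels). The deposited lists give a fold ratio, −log10 p-value and −log10 q-value for each region. Read-level comparisons of the study were not used. The genes, lists and tests were chosen with earlier results of these data known.

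Genes came from GENCODE 44 (38899 protein-coding and lncRNA genes). A gene was one-sided when both libraries of 1 mark and no library of the other had a region within 1 kb of its start, or in its body. Regions sharing 1 bp were merged, and log2 folds of regions held by all 4 libraries were fitted with limma 3.58.1 (R 4.3.3, trend), centred per library. Genes were named by rank: the 15 highest at starts and 10 highest over bodies by the lower replicate's fold, the 10 largest shared-promoter differences each way, and list members. Scripts were tested on simulated data. Depth was recovered from the steps between pileup values at the common background. At least 99.6% of these values lay within 0.2 of a whole step, where evenly spread values would give 40.0%. All 4 libraries and the input carry 1 run tag.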

Additional observations from a re-analysis of the deposited data

How the results depend on the processing

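The H3K18bu share of one-sided starts was 0.0996% as reported, 3.17% at equal numbers, 4.27% with the 5000 highest regions, 0.0% at q under 0.05, 0.282% without input regions, 0.487% for summits in the window, 1.17% with at least 1 replicate and 0.163% to 1.28% when a library was left out. Over bodies it was 0.469%, with 25.8%, 30.9%, 0.097%, 0.987% (summits) and 2.5% under the same settings, 0.183% over the whole gene record, 1.51% away from any transcript start, 65.7% when that was combined with equal numbers, and 0.327% to 4.04% with a library left out. Shared regions with a different fold numbered 882 (398 higher in H3K18bu, 484 in H3K18ac). They numbered 424 (184, 240) at equal numbers, 94 (58, 36) with the 5000 highest, 4366 (8, 4358) with no centring, 15 (5, 10) with quantile normalisation and 731 (442, 289) at q under 0.05. At q under 0.05, with the 5000 highest, with p-values in place of folds (446, 432) and without either H3K18ac library, more were higher in H3K18bu than in H3K18ac. Leaving out a library gave 104 to 1416 (5 to 845 and 74 to 689), the fewest without H3K18bu replicate 2 and the most without H3K18ac replicate 2. The cause of these changes was not tested.

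Labels give both groups replicate numbers 1 and 2. Deviations of same-numbered libraries correlated at 0.0562 over 8787 regions, so the number alone is shared. A replicate block gave 1232 called regions, 563 and 669. The difference between promoters and regions over 100 kb was -0.78 as reported, -0.6 at equal numbers, -0.52 with the 5000 highest, -0.58 with quantile normalisation and -1.12 with p-values in place of folds, and kept its direction when any library was left out (-0.87 to -0.63). The downstream share kept its direction in every setting, from -11.4 to -4.5. The promoter share of summits differed by -1.37 percentage points as reported, and by -5.4 to 2.65 when a library was left out, turning to 2.65 without H3K18bu replicate 2 and 1.28 without H3K18ac replicate 2. The distance from transcript starts, the promoter differences and the promoter share were added after seeing the data. Named genes at starts or bodies turned in 52 cases to a net -1 or -2 libraries, 40 of them when an H3K18bu library was left out. In 425 further cases the net number moved without turning, and in 355 it did not move. With 2 libraries a group, no exact test could pass 0.05.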
